A study of Mus musculus with 6 samples.

Results

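The genes described here are 10 of the 55450 genes of the kidney count table, chosen by name: the 4 platelet-derived growth factor (PDGF) ligands Pdgfa, Pdgfb, Pdgfc and Pdgfd, the 2 receptors Pdgfra and Pdgfrb, and 4 genes used as marks of activated mesenchyme, Acta2, Tagln, Vim and Fap. Whole kidney mRNA was counted in 3 mice of day 0 and 3 mice of day 21, all wild-type male C57BL/6J mice bought at 7 weeks of age. Mice of day 21 were gavaged once daily with adenine at 0.16 g/kg together with potassium oxonate at 2.4 g/kg, whereas the control mice are labelled as given 20% PEG and are equated with day 0 in the series' design. Adenine forms crystals in the tubules and oxonate blocks the enzyme that degrades uric acid, so the model joins crystal injury with raised uric acid. The control differs from day 21 in the agents, the vehicle named and the length of treatment. By the paper's methods each group was killed on its own day, so age at death would differ too. These differences cannot be told apart here.

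PDGFs are secreted dimers that bind receptor tyrosine kinases on mesenchymal cells. PDGF-A and PDGF-C act mainly through PDGFRα, PDGF-B through both receptors and PDGF-D mainly through PDGFRβ. In the kidney the receptors mark fibroblasts, pericytes, mesangial cells and vascular smooth muscle. Myofibroblasts, the cells that lay down scar collagen, arise largely from such cells and are recognised by α-smooth muscle actin, the product of Acta2.

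At the mRNA level, 9 of the 10 genes were called higher on day 21 and Pdgfc was not called. Pdgfb and Vim rose more than 3-fold, Pdgfrb and Pdgfd by factors near 2, and Pdgfra, Pdgfa, Tagln and Acta2 by smaller factors, with the groups overlapping in Pdgfra and Acta2. Fap went from at most 1 count per mouse to between 11 and 22. It passed the filter on low counts only through its day-21 counts, so its call is a description, and without it 8 of 9 genes were called higher. Calls needed both an adjusted p below 0.05 and a change beyond 1.5-fold, by the quasi-likelihood test of edgeR, with Benjamini-Hochberg adjustment across the 16592 genes tested. Every adjusted p in the text that follows comes from this edgeR test unless another tool is named. At these limits 35.1% of all genes tested were called, 19.6% higher and 15.5% lower, so a call is common in this comparison. Every day-21 mouse lay above every day-0 mouse in 7 of the 10 genes, against 30.7% of all genes tested. Without Fap this held for 6 of 9. The median log2 fold change of the 10 genes was 0.97, or 0.95 without Fap, and that of all genes tested was 0.03. No gene of the 10 was called lower by edgeR, DESeq2 or limma-voom. In whole kidney, more cells of a type and more RNA per cell cannot be told apart.

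**Figure D1:**
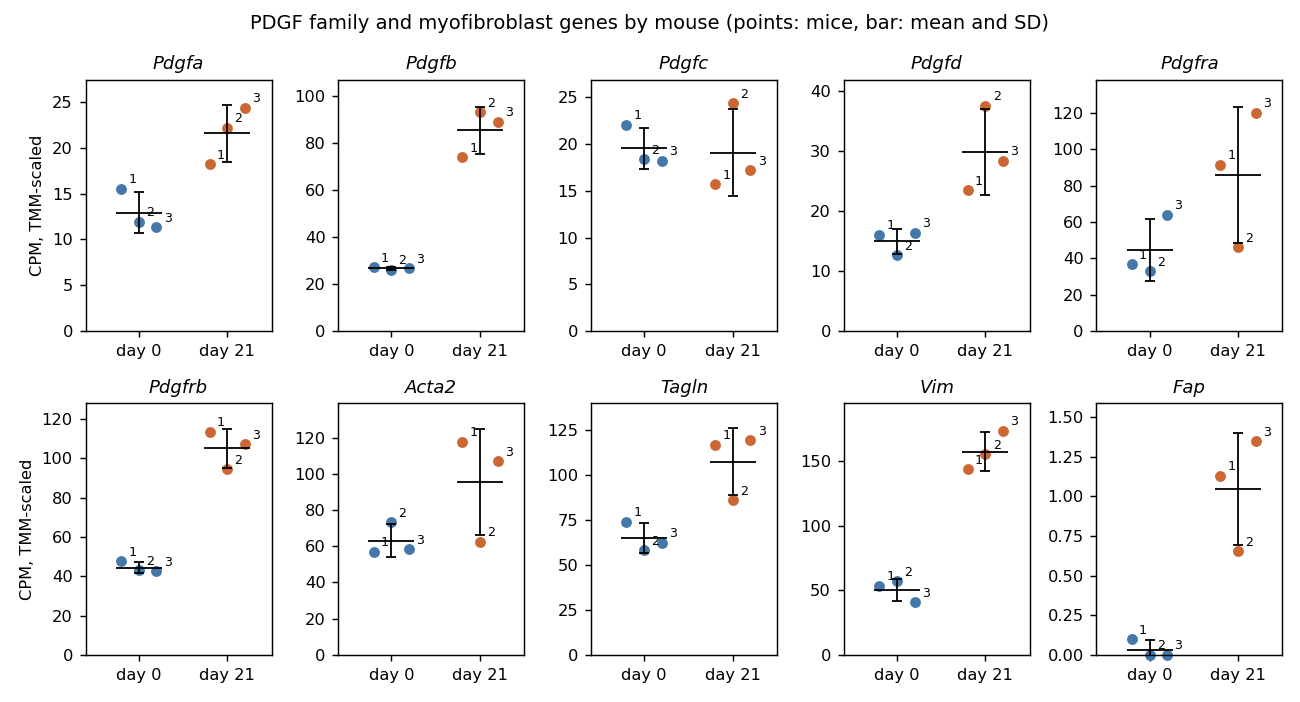
CPM (counts scaled to a common library total, on TMM-scaled library sizes; vertical axes) of the 10 genes in each mouse, with 1 point per mouse, mice numbered, and the mean and SD of each group of 3. The groups overlap in Pdgfc, Pdgfra and Acta2, where day-21 mouse 2 sits at 46.3 CPM for Pdgfra and 62.4 CPM for Acta2.

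The ligands were led by Pdgfb, which encodes the chain that binds both receptors and recruits pericytes to vessels. Pdgfb (ENSMUSG00000000489.7, GRCm38 chr15:79995874-80014977, minus strand) was at 27.1, 26.1 and 26.9 CPM in day-0 mice 1, 2 and 3 and at 73.9, 93.1 and 89.0 CPM in day-21 mice 1, 2 and 3. All day-21 mice were far above all day-0 mice, which lay close together at 26.7 ± 0.542 CPM (SD, n = 3). Pdgfb rose 3.20-fold, a log2 fold change of 1.68 ± 0.12 (SE) with an adjusted p of 4.3e-06.

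Pdgfd (ENSMUSG00000032006.15, chr9:6168584-6378850, plus strand) encodes a ligand that is secreted with a CUB domain and is active only after proteases remove it. It was at 16.02, 12.6 and 16.4 CPM on day 0 and 23.4, 37.5 and 28.3 CPM on day 21. The groups did not overlap, and day-21 mouse 2 was the highest. Pdgfd rose 1.99-fold, with a log2 fold change of 0.99 ± 0.19 (SE) and an adjusted p of 0.0019.

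Pdgfa (ENSMUSG00000025856.15, chr5:138976014-138997370, minus strand), the PDGFRα ligand made by many epithelia, was at 15.5, 11.9 and 11.3 CPM on day 0. On day 21 it was at 18.2, 22.2 and 24.3 CPM. The groups did not overlap, but day-0 mouse 1 and day-21 mouse 1 came within a few CPM of each other. Pdgfa rose 1.67-fold, with a log2 fold change of 0.74 ± 0.17 (SE) and an adjusted p of 0.006. An antisense gene, 6330403L08Rik, holds 26.1% of its exon bases, and the strand setting of the counting is not given in the sources used here. Reads of the pair cannot be told apart without it, and 6330403L08Rik, which held 0.174 to 0.4 counts for each count of Pdgfa, was itself called higher with a log2 fold change of 0.70.

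Pdgfc (ENSMUSG00000028019.9, chr3:81036416-81214040, plus strand), the second PDGFRα ligand and also one that needs its CUB domain cleaved, did not follow. It was at 22.0, 18.4 and 18.2 CPM on day 0 and at 15.7, 24.4 and 17.2 CPM on day 21, with the groups fully mixed. Its log2 fold change was −0.03, with a 95% interval from −0.44 to 0.38 and an adjusted p of 0.9, and its sign changed with the scaling and with the mouse left out. The interval leaves room for changes of up to those bounds in either direction.

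The make-up of ligand transcripts differed between the groups. On a scale of CPM per kb of exon, which allows genes to be compared, Pdgfb made up 31.2%, 35.4% and 34.2% of the summed level of the 4 ligands in day-0 mice 1, 2 and 3. On day 21 its share was 52.1%, 48.5% and 51.5%. The share of Pdgfc was between 19.0% and 20.7% on day 0 and between 8.13% and 10.4% on day 21. Pdgfa held 19.3% to 23.8% on day 0 and 15.4% to 18.8% on day 21, and the ranges of Pdgfd, 22.6% to 27.5% and 21.6% to 25.7%, overlapped. Ratios of 2 genes within a library do not depend on the scaling. The log2 ratio of Pdgfb to Pdgfa was 1.06 ± 0.228 (SD, n = 3) on day 0 and 1.99 ± 0.104 on day 21, higher by 0.93. The log2 ratio of Pdgfd to Pdgfc was higher on day 21 by 1.03. In both ratios the groups did not overlap, and each gave p = 0.1 in a two-sided exact permutation test, the smallest value that 3 mice against 3 can give (0.15 adjusted over 6 ratios).

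**Figure D2:**
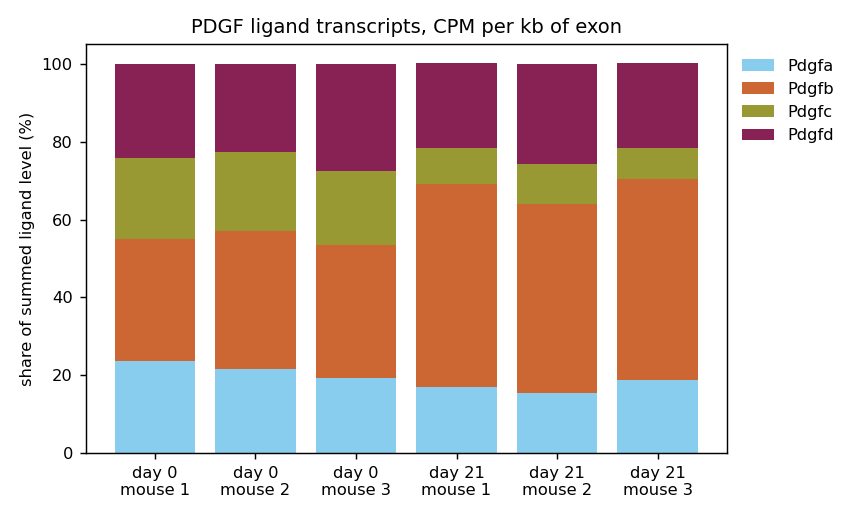
Share of each PDGF ligand (%, vertical axis) in the summed CPM per kb of exon of the 4 ligand genes, with 1 stacked bar per mouse. The Pdgfb block spans 31.2% to 35.4% in day-0 mice and 48.5% to 52.1% in day-21 mice, and the Pdgfc block narrows from at least 19.0% to at most 10.4%.

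Both receptors were called higher. Pdgfrb (ENSMUSG00000024620.11, chr18:61045150-61085061, plus strand), the receptor that defines pericytes and mesangial cells, was at 47.6, 43.2 and 42.6 CPM on day 0 and at 113, 94.4 and 107 CPM on day 21. The groups were far apart and each was tight. Pdgfrb rose 2.36-fold, with a log2 fold change of 1.24 ± 0.11 (SE) and an adjusted p of 1.7e-05.

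Pdgfra (ENSMUSG00000029231.15, chr5:75152292-75198215, plus strand), the receptor that marks interstitial fibroblasts, was at 36.8, 32.9 and 64.0 CPM on day 0 and at 91.5, 46.3 and 120 CPM on day 21. Day-21 mouse 2 lay below day-0 mouse 3, so the groups overlapped. The log2 fold change was 0.95 ± 0.33 (SE), or 1.93-fold, with an adjusted p of 0.038. The exact permutation test over the 6 mice gave p = 0.2 for Pdgfra. The call was lost with DESeq2 (adjusted p of 0.1) and when day-0 mouse 1 or 2 or day-21 mouse 1 or 3 was left out, with adjusted p from 0.088 to 0.16 in edgeR. The log2 ratio of Pdgfrb to Pdgfra was 0.06 ± 0.559 (SD, n = 3) on day 0 and 0.39 ± 0.6 on day 21, with overlapping groups and an exact permutation p of 0.6. The difference of 0.33 was 0.012 without day-0 mouse 3, 0.016 without day-21 mouse 2 and 0.612 without day-21 mouse 3, so single mice set its size. A difference in response between the receptors was thus not detectable with these mice.

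Each receptor gene lies beside other receptor tyrosine kinase genes, with no other coding gene between them. Pdgfra and Kit, the receptor for stem cell factor, are 376.7 kb apart on chromosome 5, and Kdr, the main VEGF receptor of endothelium, lies 276.1 kb beyond Kit. Kit was not called (log2 fold change −0.17) and Kdr fell by 1.33 on the log2 scale, with an adjusted p of 0.00011. Pdgfrb and Csf1r, the receptor for macrophage colony-stimulating factor, are 15.5 kb apart, and Csf1r rose by 0.83 with an adjusted p of 0.00012.

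**Figure D3:**
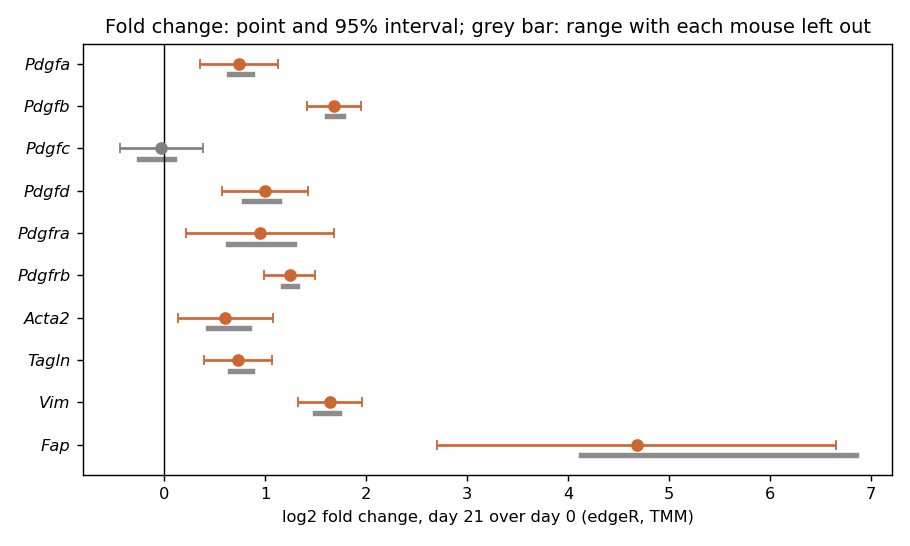
Log2 fold change, day 21 over day 0 (horizontal axis), of the 10 genes from edgeR with its 95% interval, in orange where the gene was called, and below each a grey bar for the range over fits with 1 mouse left out. The interval of Pdgfc spans 0, those of Pdgfra and Acta2 start at 0.22 and 0.13, and the point of Fap depends on a day-0 level near 0 and bounds nothing.

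Of the myofibroblast genes, Vim (ENSMUSG00000026728.9, chr2:13573927-13582826, plus strand) moved most clearly. It encodes vimentin, the intermediate filament of mesenchymal cells, leukocytes and endothelium, and injured tubule cells also express it. Its level was 53.8, 57.1 and 41.0 CPM on day 0 and 144, 155 and 174 CPM on day 21. Each day-21 mouse was well above each day-0 mouse. Vim rose 3.11-fold, with a log2 fold change of 1.64 ± 0.14 (SE) and an adjusted p of 1.3e-05.

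Acta2 (ENSMUSG00000035783.9, chr19:34241090-34255590, minus strand), the smooth muscle actin that defines myofibroblasts, was at 56.9, 73.4 and 58.4 CPM on day 0 and at 118, 62.4 and 107 CPM on day 21. Day-21 mouse 2 sat among the day-0 mice, and the other two day-21 mice lay above all of them. Acta2 passed by a narrow margin, at 1.52-fold against the limit of 1.5, with a log2 fold change of 0.60 ± 0.21 (SE) and an adjusted p of 0.04. The exact permutation test gave p = 0.2. The call was lost under RLE scaling (adjusted p of 0.051), limma-voom (0.058), a replicate block (0.056) and DESeq2, which put the log2 fold change at 0.57, under the limit on fold. It was also lost without day-0 mouse 1 or 3 or day-21 mouse 1 or 3, at adjusted p from 0.1 to 0.15 in edgeR, while the estimate ran from 0.43 without day-21 mouse 1 to 0.84 without day-21 mouse 2.

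The smooth muscle actin and calponin genes are classic targets of serum response factor (SRF), which binds the CArG box, a core of 6 bases of A or T between CC and GG. The 250 bases before the RefSeq start (GRCm38.p6) were searched for it, exactly or with 1 core base as G or C. A box in the exact form stands in 1.47% and in either form in 8.59% of 32851 such windows. Since the pattern searched, though not each single box, reads the same on both strands, 1 search covers both. Windows were in the table for 6 of the 10 genes, and Acta2 and Pdgfc held a box. Both boxes of Acta2, that of Pdgfc and the exact boxes of 3 genes related to Acta2 or Tagln are shown, with capitals for the box, so that boxes of genes that were called and genes that were not can be read side by side. Acta1 also holds 2 boxes with 1 core base G or C, which are not shown.
Acta2 at 84 bases before the start, 1 core base G or C (chr19:34255438-34255467, minus strand): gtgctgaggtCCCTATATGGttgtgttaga
Acta2 at 34 bases before the start, 1 core base G or C (chr19:34255388-34255417, minus strand): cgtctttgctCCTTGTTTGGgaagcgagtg
Pdgfc at 17 bases before the start, exact (chr3:81036386-81036415, plus strand): cagcccgcagactCCTTATTTGGggttagg
Acta1 at 73 bases before the start, exact (chr8:123894829-123894858, minus strand): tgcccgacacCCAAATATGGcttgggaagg
Actg1 at 90 bases before the start, exact (chr11:120348566-120348595, minus strand): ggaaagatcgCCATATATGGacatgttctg
Cnn2 at 56 bases before the start, exact (chr10:79988534-79988563, plus strand): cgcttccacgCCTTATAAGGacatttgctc
Of 20 further smooth muscle, actin, transgelin and calponin genes, 17 had a window and 5 held an exact box, the 3 shown, Myl9 and Actc1. Among these genes with an exact box, Cnn2 was called higher, Actg1, Myl9 and Pdgfc were not called, and Actc1 had too few counts to be tested. Acta1 was also called higher, but passed the filter on low counts only through its day-21 counts, so its call is a description. Of all genes tested, 19.6% were called higher. Both stretches of Acta2 lie inside an exon that GENCODE annotates for that gene. A match is a description of letters, not a bound site. Srf itself had a log2 fold change of 0.04.

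Tagln (ENSMUSG00000032085.5, chr9:45929619-45936058, minus strand) encodes transgelin, an actin-binding protein of smooth muscle and myofibroblasts. It was at 74.2, 58.3 and 62.4 CPM on day 0 and at 117, 86.0 and 120 CPM on day 21. The groups did not overlap, with day-21 mouse 2 again the lowest of its group. Tagln rose 1.66-fold, with a log2 fold change of 0.73 ± 0.15 (SE) and an adjusted p of 0.0029. An antisense gene, Gm48529, covers 62.4% of the exon bases of Tagln, and its counts followed those of Tagln closely, at 0.942 to 1.06 counts for each count of Tagln in every mouse. Gm48529 was called higher as well, with a log2 fold change of 0.69 and an adjusted p of 0.0071. Without the strand setting, reads of this pair cannot be told apart, so the level of Tagln is uncertain.

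Fap (ENSMUSG00000000392.17, chr2:62500943-62574075, minus strand) encodes fibroblast activation protein, a prolyl peptidase of activated fibroblasts with little expression in healthy adult tissue. Its counts were 1, 0 and 0 in day-0 mice 1, 2 and 3, and 16, 11 and 22 in day-21 mice 1, 2 and 3. No day-0 mouse exceeded 3 counts, the smallest level taken as visible (here 0.247 to 0.309 CPM), and every day-21 mouse was above it at 1.13, 0.655 and 1.35 CPM. Set against that floor in each day-0 library, Fap was at least 3.66-fold higher on day 21. No p is given for it, since a gene this low on day 0 entered the test only by being higher on day 21, and without day-21 mouse 3 it had too few counts to be tested. This bound and the floor cover counting error only.

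The levels were also compared per kb of all annotated exon of each gene. On day 0 the mean levels were 32.7 ± 4.14 CPM per kb for Tagln (SD, n = 3) and 28.7 ± 4.16 for Acta2, followed by Vim at 10.7 ± 1.80, Pdgfrb at 8.12 ± 0.493 and Pdgfb at 6.42 ± 0.130. Pdgfd at 4.75 ± 0.661, Pdgfra at 4.45 ± 1.69, Pdgfa at 4.14 ± 0.727 and Pdgfc at 3.84 ± 0.425 formed a low group. Neighbours among those low genes did not differ by more than the larger of their SDs, nor did Tagln and Acta2. On day 21 Vim stood at 33.3 ± 3.19 CPM per kb, closer to Acta2 (43.6 ± 13.4) and Tagln (54.1 ± 9.40), and Pdgfb at 20.5 ± 2.43 and Pdgfrb at 19.2 ± 1.78 were within an SD of each other. Pdgfd was then at 9.43 ± 2.26, Pdgfra at 8.58 ± 3.72, Pdgfa at 6.92 ± 0.996 and Pdgfc at 3.75 ± 0.912, and Fap was lowest on both days. Vim came within the SD of Acta2, and Pdgfc was then below Pdgfa by more than either SD. This order holds for that length alone. Per kb of the longest transcript, Vim stood at 71.9 on day 21, above Tagln at 67.4, and Pdgfb was above Pdgfrb on both days, at 9.07 against 8.20 on day 0 and 29.0 against 19.4 on day 21. Pdgfd, at 4.79 on day 0, was then below Pdgfra, Pdgfa and Pdgfc, and on day 21 at 9.50 it was below Pdgfa at 10.5.

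Acta2 did not move with all smooth muscle genes. The log2 ratio of Acta2 to Myh11, the smooth muscle myosin heavy chain of mature contractile cells, was 0.85 ± 0.116 (SD, n = 3) on day 0 and 2.19 ± 0.619 on day 21, with no overlap. The ratio of Acta2 to Pdgfrb was lower on day 21 by 0.68 on the log2 scale, again without overlap. Both had an exact permutation p of 0.1, the smallest possible (0.15 adjusted over 6 ratios). The ratio of Acta2 to Tagln was −0.05 ± 0.36 on day 0 and −0.21 ± 0.239 on day 21, overlapping, with an exact permutation p of 0.6.

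Myh11 was at 28.8, 41.9 and 34.6 CPM on day 0 and at 20.1, 22.5 and 18.4 CPM on day 21. Every day-21 mouse was below every day-0 mouse, and Myh11 fell by 0.79 on the log2 scale (adjusted p of 0.0024). With library size alone as the scaling it was no longer called. Of the 12 smooth muscle contractile genes listed beside Acta2 and Tagln, 11 were tested, 3 were called higher and Myh11 alone lower, with a median log2 fold change of 0.28. Over all genes tested, 19.6% were called higher and 15.5% lower, with a median of 0.03. Tpm1, an actin-filament tropomyosin found in many cell types, rose by 1.36, Cald1 (caldesmon) by 0.85 and Smtn (smoothelin) by 0.64. Cnn1, the calponin of differentiated smooth muscle, had a value of −0.18, and Myl9, its myosin light chain, −0.04. Desmin (Des) reached 0.56, just under the limit on fold.

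Of a list of 10 actin, transgelin and calponin isoforms, which shares Actg2 and Cnn1 with the contractile list, 7 were tested and 4 were called higher, with a median of 0.76. Both the count and the median include Acta1, which passed the filter on low counts only through its day-21 counts, so its call is a description. For comparison, 19.6% of all genes tested were called higher, with a median of 0.03. Acta1, skeletal actin, was counted 1, 1 and 0 times in the day-0 mice and 20, 43 and 31 times in the day-21 mice, which is at least 6.86-fold against the floor of 3 counts. Tagln2, the transgelin of non-muscle cells, rose by 1.36, Cnn2 by 1.07 and the cytoplasmic Actb by 0.76. The other cytoplasmic actin, Actg1, had a value of 0.21.

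Of 13 transcription factors linked to myofibroblasts, 12 were tested and 5 were called higher, with a median of 0.69. The share called higher over all genes tested was 19.6%, and their median was 0.03. Tcf21, a factor of stromal progenitors, rose by 2.07, Prrx1, which marks mesenchymal fibroblasts, by 1.92, Snai2 by 1.46, Snai1 by 1.13 and Zeb2 by 0.94. The groups overlapped in Prrx1, at 1.10, 1.48 and 5.66 CPM on day 0 and 10.9, 5.12 and 14.7 CPM on day 21. Foxd1, the factor of the embryonic stroma, had −0.40 and Meox1 −0.28. The SRF co-factor genes Mrtfa and Mrtfb had 0.44 and 0.33, and Myocd, the smooth muscle co-factor, had too few counts to be tested.

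Beside Vim, 4 of 6 intermediate filament genes were tested, and Nes (nestin) rose by 0.67. Des had 0.56, Lmna 0.56 and Synm 0.27. Beside Fap, 6 of 8 genes of related prolyl peptidases were tested and Prepl fell by 1.11. Prep had 0.24, Dpp7 −0.22 and Dpp8 −0.53. The median of the Fap relatives was −0.26 and turned to 0.12 with library size alone as the scaling, which moved the median of all genes to 0.42.

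Of 10 genes that process PDGFs or modify their reception, all tested, 3 were called higher and 2 lower, with a median of 0.34. Among all genes tested the shares were 19.6% and 15.5%. With library size alone as the scaling, 6 were called higher and 1 lower, with a median of 0.73. Of all 16592 genes tested, 5982 were then called higher and 1338 lower. Sparc, a matrix protein that binds PDGF-B and keeps it from its receptor, was at 171, 159 and 156 CPM on day 0 and at 768, 557 and 780 CPM on day 21, a log2 fold change of 2.12. Lrp1, an endocytic receptor that associates with PDGFRβ, rose by 1.11, and St14 (matriptase), a protease that can activate PDGF-D, rose by 0.69. Plau and Nrp1 each had 0.43 and Plat 0.24, and none of these was called. The proprotein convertase genes went down or did not pass. Pcsk6 was at 43.1, 47.2 and 55.8 CPM on day 0 and at 8.54, 5.66 and 7.40 CPM on day 21, a fall by 2.76 on the log2 scale. Furin fell by 0.64, a call not kept under upper quartile scaling or library size alone, while Pcsk5 and Pcsk7 had −0.52 each. Pcsk7 shares 5.43% of the exon bases of Tagln on the opposite strand.

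Downstream of the receptors, 3 of 19 signal transducer genes were called higher, which is close to the 19.6% of all genes, and the median was 0.21. The adaptor Nck1 and the kinase Akt1 each rose by 0.72 and Pik3r1, the regulatory subunit of PI3-kinase, by 0.62. The lowest values were those of the docking protein Gab1 (−0.56) and the catalytic subunit Pik3ca (−0.48), neither of which was called, though Gab1 was called lower under RLE scaling.

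Among 7 genes of the other class III receptors and their ligands, Csf1, Il34 and Csf1r rose, by 1.93, 1.89 and 0.83. Csf1 and Il34 are the ligands of Csf1r. Kit and its ligand Kitl had −0.17 and −0.24, and Flt3 and Flt3l had 0.36 and −0.04 at levels under 2 CPM. With library size alone as the scaling, calls of higher genes numbered 10 of the 19 transducers, 8 of the 12 transcription factors, 6 of the 7 isoforms, 5 of the 11 contractile genes and 3 of the 4 filament genes. That scaling raised such calls among all 16592 genes tested as well, to 5982 from 3250, and the median of all genes to 0.42.

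**Figure D4:**
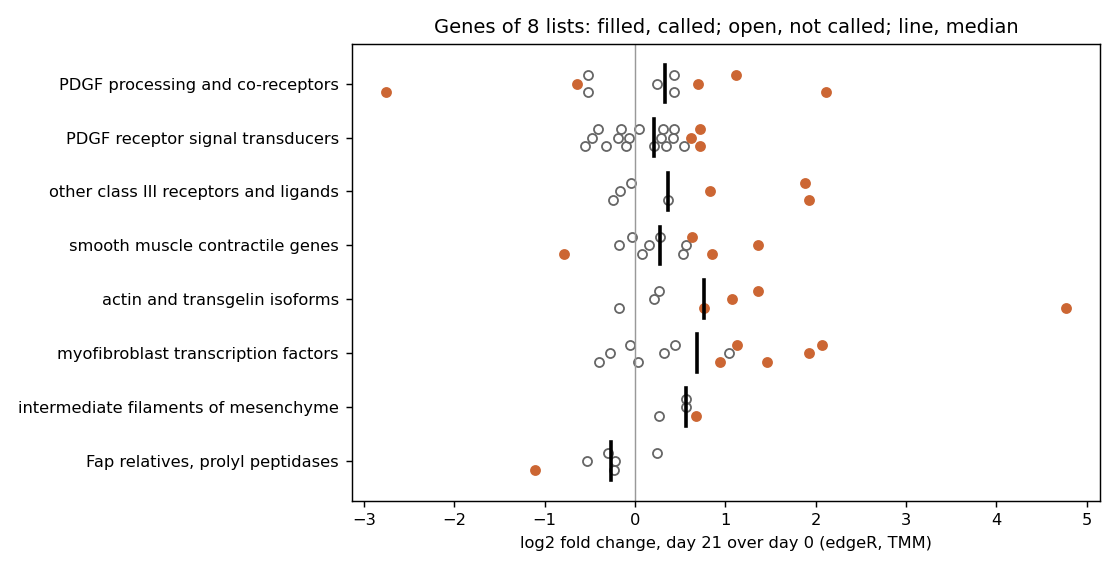
Log2 fold change, day 21 over day 0 (edgeR, horizontal axis), of every tested gene in 8 lists of genes related to the PDGF family or the myofibroblast genes, with filled points for genes called, open points for others and a line at each list's median. The medians run from −0.26 for the Fap relatives to 0.76 for the actin and transgelin isoforms, and the point of Acta1 rests on a day-0 level near 0.

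Markers of several cell types moved together with these genes, and their part in the values above was not tested. Of all genes tested, 19.6% were called higher and 15.5% lower. All 9 fibroblast markers were called higher, from Dcn at 1.20 to Col1a1 at 4.35. Their summed level was 138 to 250 CPM on day 0 and 1086 to 2033 CPM on day 21. The groups overlapped in Dcn, at 48.6, 33.1 and 52.7 CPM on day 0 and 135, 46.6 and 127 CPM on day 21. All 5 macrophage markers (Adgre1, Cd68, Csf1r, Itgam and C1qa) were called higher, with a sum of 96.5 to 113 CPM and then 372 to 426 CPM. Of these, Itgam, counted 1, 10 and 5 times in the day-0 mice, passed the filter on low counts only through its day-21 counts. Its call is a description. All 6 proximal tubule markers (Slc34a1, Lrp2, Slc5a2, Slc5a12, Cubn and Slc22a6) were called lower, and their sum went from 9254 to 10100 CPM down to 1782 to 2210 CPM. Pericyte markers, in contrast, were mixed. Cspg4 (0.59, not called under RLE scaling) and Mcam (0.70) were called higher and Abcc9 (−1.29) lower, Rgs5 (−0.05), Notch3 (0.22), Kcnj8 (−0.50) and Higd1b (−0.77) were not called, and their sums of 156 to 174 CPM and 151 to 190 CPM overlapped. Their median of −0.05 changed sign under upper quartile scaling (0.03) and library size alone (0.33).

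Of the endothelial markers, Kdr was called lower and Pecam1, Cdh5, Emcn and Tek were not called, with sums of 348 to 398 CPM on day 0 and 182 to 302 CPM on day 21. Among platelet markers Pf4, which macrophages also express, rose by 1.72. Pf4 passed the filter on low counts only through its day-21 counts, so its call is a description. Ppbp and Itga2b were not called, Gp9 was not tested and Gp1bb had no count in any mouse. The platelet sums overlapped at 7.20 to 9.30 CPM and 7.45 to 9.39 CPM. Of the mesangial list, Serpine2 rose by 2.34, Ren1, which is the renin gene of juxtaglomerular cells, fell by 1.55, Itga8 and Gata3 were not called, and the sums overlapped at 168 to 280 CPM and 213 to 287 CPM. The podocyte genes Nphs1 and Podxl were called lower and Synpo and Wt1 were not called, with sums of 317 to 512 CPM and 257 to 301 CPM. With library size alone as the scaling neither was called.

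**Figure D5:**
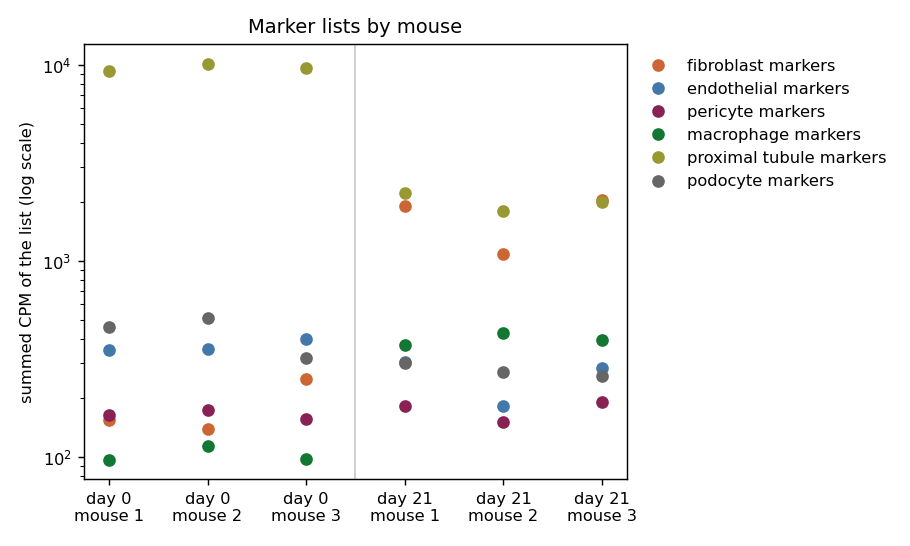
Summed CPM (vertical axis, log scale) of 6 lists of cell type markers in each mouse, with 1 point per list and mouse. Fibroblast and macrophage sums are higher in every day-21 mouse, proximal tubule sums are lower, and day-21 mouse 2 has the lowest fibroblast sum of its group, at 1086 CPM.

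A pair of mice stood apart from their groups in ways that touch the members. Day-0 mouse 3 had the highest Pdgfra of its group (64.0 CPM), the highest fibroblast sum (250 CPM) and the highest adipocyte marker sum (17.0 CPM, against 0.40 to 2.14 CPM in all other mice), led by Cidec and Adipoq at 8.13 and 5.25 CPM. Day-21 mouse 2 had the lowest Pdgfra, Pdgfrb, Acta2, Tagln and Fap of its group, the lowest fibroblast sum and the lowest endothelial sum (182 CPM), but the highest Pdgfb, Pdgfc and Pdgfd. Without this pair of mice, a choice made after the data were seen, 8 of the 10 genes were called. Pdgfra then rose by 1.60, Acta2 by 0.78, and Pdgfa had 0.64 at an adjusted p of 0.052 and was no longer called.

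Library totals ran from 10963849 to 14333311 counts, and no pair of mice within a group was alike to within counting noise. Of all 16592 genes tested, 3250 were called higher and 2572 lower, so 55.8% of calls were higher. This split was 53.0% under RLE scaling, 63.0% under upper quartile scaling and 81.7% with library size alone. The members' calls were 9 under each but RLE scaling, where Acta2 dropped out.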

How the data were processed

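Kidney mRNA of 3 day-0 and 3 day-21 mice was sequenced by the authors as paired 150-base reads from a TruSeq library of total RNA. The authors deposited raw counts per gene and mouse, not normalized, and the submitters' processing notes name TopHat and mm10. The counting program and its strand setting are not given in the sources used here. Every gene ID matched GENCODE mouse release 21 (GRCm38), used for positions and exon lengths. RefSeq windows (GRCm38.p6) supplied promoter sequence.

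Groups were compared with edgeR 4.0.16 (R 4.3.3): filterByExpr (minimum count 10, minimum total 15), TMM scaling, the quasi-likelihood test and Benjamini-Hochberg adjustment over 16592 genes. CPM are on TMM-scaled library sizes. Limits of adjusted p under 0.05 and fold over 1.5 are those of the study's methods. Ratios used two-sided exact permutation tests in scipy 1.17.1. The fits with each tool were run on simulated data with 200 genes changed 3-fold, far fewer than the 5822 genes called here. That simulation therefore did not test how the scaling behaves when so many genes differ.

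The members and lists were chosen with earlier results of these data known. From each list the 2 highest, the 2 lowest and, in lists of 7 or fewer, all genes were to be named. A few list genes are not reported here and were left out of the lists. Further genes were named after their values were seen. Alternatives were RLE, upper quartile or no scaling, no filter or a minimum count of 50, DESeq2 1.42.0, limma-voom 3.58.1, a replicate block, the 20 highest genes left out, stricter limits and each mouse left out. Replicate numbers are not stated to pair mice. Labels name 3 samples per group, taken as separate mice, and no batch. Only days 0 and 21 were analysed here.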

Additional observations from a re-analysis of the deposited data

How the results depend on the processing

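Pdgfb, Pdgfd, Pdgfrb, Tagln and Vim kept their direction and call under all 16 alternatives of scaling, filter, tool, block and mice left out, while Fap could be tested in 14 of them (not at a minimum count of 50, nor without day-21 mouse 3). Pdgfa lost its call in 1, Pdgfra in 5 and Acta2 in 8, all with the direction kept. Leaving out 1 mouse gave between 6 and 9 members called, 25 to 28 genes of the related lists and 5128 to 5920 of all genes. The log2 fold change of Pdgfc, −0.03, turned positive under upper quartile scaling (0.059), with library size alone (0.361), and without day-0 mouse 1 (0.042), day-21 mouse 1 (0.091) or day-21 mouse 3 (0.041), within a range from −0.247 to 0.091 over single mice left out. The difference in the log2 ratio of Acta2 to Tagln ran from −0.324 to 0.033 when 1 mouse was left out, positive only without day-0 mouse 2. With library size alone 43 list genes were called, against 26, and 7320 of all genes, against 5822. With stricter limits (adjusted p below 0.01, change beyond 2-fold), 4 members (against 9) and 3172 of all genes (against 5822) were called, by construction fewer. The members were Pdgfb, Pdgfrb, Vim and Fap, whose call is a description, while Pdgfa, Pdgfd and Tagln fell under the limit on fold alone.

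Mice with the same number in both groups did not all deviate together, with correlations of −0.03, 0.177 and 0.106. Mice with different numbers had correlations from −0.203 to 0.133. Such weak values cannot settle whether the numbers pair mice. With a replicate block 8 members, 27 list genes and 5758 of all genes were called, and the block ended no member's call but that of Acta2. The block lowered the SE of Pdgfra from 0.330 to 0.156. Without a filter on low counts, edgeR drew the spread from all genes (107700 degrees of freedom, against 10.12), so that the SE of Pdgfra was 0.141 in place of 0.330. Calls of Pdgfra and Acta2 in that fit therefore do not reflect their own spread between mice.

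Precision is limited by 3 mice per group and, for Fap and Acta1, by counts of at most 1 on day 0. Levels per kb rest on annotated lengths, and those of Tagln and Pdgfa also on reads shared with antisense genes.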
